A study of Mus musculus with 11 samples.

Results

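The genes described here are 10 classical type I interferon-stimulated genes, Isg15, Ifit1, Ifit2, Ifit3, Mx1, Mx2, Oas2, Oasl2, Rsad2 and Irf7, in bulk RNA of mouse orthotopic pancreatic tumours. They were taken by name from the 54232 genes of the raw count table, as a list chosen with earlier results of these data known. All 10 were among the 16536 genes that passed the expression filter and were tested. The tumours were grown from 1000 TB32048 cells, a carcinoma line from a female KPC mouse, injected into the pancreas of adult, age-matched female C57BL/6 hosts. KO hosts (6 tumours, A to F) carried 2 floxed Pkn2 alleles and WT hosts (5 tumours, A to E) carried none. All hosts were heterozygous for RosaCreERT2 and all received the same tamoxifen, so that both groups share the Cre driver and the drug. Cre from the Rosa26 locus acts in every host tissue, and deletion is therefore not limited to one stromal cell type, while the tumour cells, all from 1 line, were implanted and are not host tissue. RNA came from whole tumour pieces, in which more cells of a type and more RNA per cell cannot be told apart.

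Type I interferons are secreted when cells sense foreign or misplaced nucleic acid. They bind the receptor IFNAR1/IFNAR2, whose kinases JAK1 and TYK2 phosphorylate STAT2, and a complex that holds STAT2 and IRF9 enters the nucleus and binds the interferon-stimulated response element (ISRE) in the promoters of the genes described here. Interferon gamma, made mainly by T and NK cells, uses another receptor and raises an overlapping set of genes. In tumours these genes are read as a sign of interferon signalling in cancer cells, immune cells or fibroblasts.

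The letters of the ISRE core could be seen in several of the promoters. The letters GAAANNGAAA (a pair of GAAA half-sites with a spacer) were searched on both strands in the RefSeq promoter windows of GRCm38.p6, from 250 bases before to 50 after each gene start. For 7 of the 10 genes 8 windows were listed, with 2 for Ifit2 and none for Mx1, Mx2 and Oas2. The core was found in 4 of the 8 windows, those of Isg15, Ifit1, Ifit3 and Rsad2, against 3.44% of all 32851 windows. These 4 stretches are shown because they hold letters that match the ISRE core. Each runs 170 bases up to the base before the start, in the direction of the gene. Capitals mark each match or run of overlapping matches to the core or its reverse complement TTTCNNTTTC.
Isg15 (chr4:156200819-156200988, minus strand): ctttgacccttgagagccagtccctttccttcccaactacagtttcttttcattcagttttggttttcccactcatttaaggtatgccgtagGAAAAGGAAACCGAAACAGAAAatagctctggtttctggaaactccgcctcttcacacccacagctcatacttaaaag
Ifit1 (chr19:34640719-34640888, plus strand): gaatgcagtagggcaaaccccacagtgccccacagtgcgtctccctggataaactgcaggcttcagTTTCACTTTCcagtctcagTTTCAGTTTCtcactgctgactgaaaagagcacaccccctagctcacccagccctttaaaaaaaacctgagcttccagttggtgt
Ifit3 (chr19:34583359-34583528, plus strand): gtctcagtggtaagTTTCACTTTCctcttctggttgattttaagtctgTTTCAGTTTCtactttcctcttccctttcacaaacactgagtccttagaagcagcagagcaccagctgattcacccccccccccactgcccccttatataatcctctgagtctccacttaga
Rsad2 (chr12:26456453-26456622, minus strand): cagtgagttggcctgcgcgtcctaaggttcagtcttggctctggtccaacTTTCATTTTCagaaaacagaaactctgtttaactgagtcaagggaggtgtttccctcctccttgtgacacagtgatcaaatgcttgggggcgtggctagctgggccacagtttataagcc
In Isg15 there were 3 overlapping matches between positions -78 and -57 before the start, on the strand of the gene. Ifit1 held matches at -104 to -95 and -85 to -76, and Ifit3 at -156 to -147 and -122 to -113, all on the opposite strand. Rsad2 held 1 match, at -120 to -111. The windows of Ifit2, Irf7 and Oasl2 held none, which says only that these letters were not in these windows. A match is a description of the sequence, not a measured binding site.

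On the genome, Ifit2, Ifit3 and Ifit1 lie in 1 cluster on chromosome 19 (chr19:34550694-34576419, chr19:34583531-34588731 and chr19:34640871-34650009, plus strand). Mx1 (chr16:97447035-97462907, minus strand) and Mx2 (chr16:97535308-97560900, plus strand) are neighbours on chromosome 16. Oasl2 (chr5:114896936-114912234, plus strand) and Oas2 (chr5:120730333-120749853, minus strand) are on chromosome 5. Isg15 is at chr4:156199424-156200818 (minus strand), Rsad2 at chr12:26442746-26456452 (minus strand) and Irf7 at chr7:141262706-141266481 (minus strand). No exon of the 10 genes overlapped another gene on the same strand. Of the stretches of 100 bases in Ifit3 transcripts, 31.7% also occurred in its copy Ifit3b, so that a read lying wholly within them could not be placed uniquely and the Ifit3 count is uncertain. The share of reads lost in this way was not measured. The same shares were 3.29% for Ifit1 (with Ifit1bl2), 0.929% for Mx1 and 1.13% for Mx2 (with each other), and 0% for the other 6 genes.

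Libraries held between 22791627 and 28017673 counts in the KO group and between 16294128 and 31121422 in the WT group. Levels are given as CPM, the counts of a gene relative to the TMM-scaled size of its library, and 3 counts, taken as the smallest visible level, correspond to between 0.0964 and 0.184 CPM. WT A, B and C stood apart from the other libraries. Ribosomal RNA took between 0.308% and 0.739% of counts in KO tumours, but 6.39% in WT B, 1.40% in WT C, 1.31% in WT A, 0.765% in WT D and 0.241% in WT E. In WT A, B and C longer genes also read lower relative to the mean tumour (Spearman rho of deviation with exon length across genes, -0.505, -0.456 and -0.176), while in the other 8 tumours the correlation was between 0.122 and 0.407. The mRNA of the targeted gene Pkn2 averaged 96.6 ± 9.34 CPM (SD, n = 6) over KO and 96.7 ± 34.6 CPM (SD, n = 5) over WT. The count of the whole gene thus did not separate the labels. Tumour pieces also hold RNA of the implanted cells, and their part in this count was not tested. The paper describes deletion in adults of this mouse model as penetrant, with a western blot of PKN2 protein in the pancreas. Marker genes of pancreatic carcinoma epithelium (Krt8, Krt18, Krt19, Epcam, Cdh1, Cldn4) had counts in all 11 tumours.

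Whether loss of host PKN2 changed interferon-stimulated gene expression was the first question. None of the 10 genes passed the test, and the levels of KO and WT tumours overlapped for all 10. By edgeR 0 of 10 genes had an adjusted p under 0.05, beside 0.0181% of all genes tested (3 genes, all higher in KO), and by DESeq2 also 0 of 10, beside 8.06%. At an unadjusted p under 0.05 there were 2 of 10, Ifit2 and Oasl2, both higher in KO, against 24% of all genes in either direction and 8.57% in this one. The log2 fold change, KO minus WT, was above 0 for 8 of 10 genes, against 48% of all genes, and had a median of 0.33, against -0.03 over all genes. The 10 genes moved together over the tumours (below), so their signs are not 10 independent observations. The share of all genes without overlap between the groups was 3.6%.

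**Figure D1:**
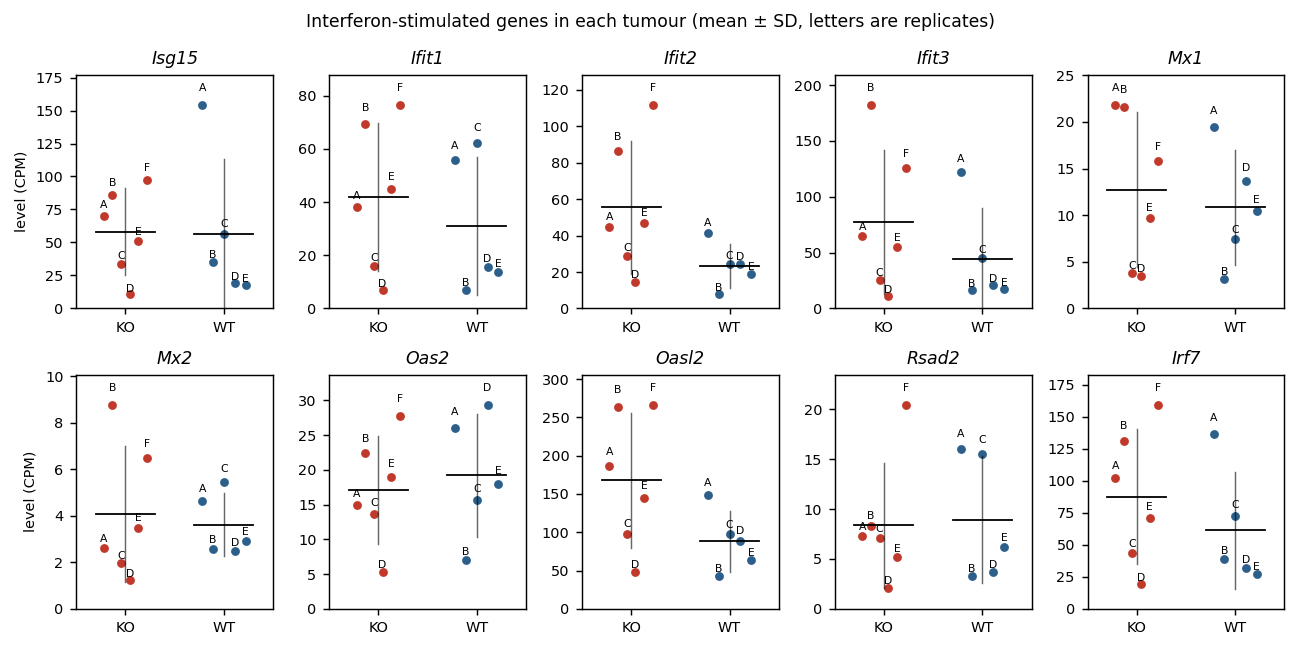
Level of each of the 10 genes in CPM (y axis, from 0, 1 panel per gene) in the 6 KO tumours (red) and the 5 WT tumours (blue); letters name the tumours, horizontal bars are group means and vertical lines SD. The groups overlap in every panel, KO D is the lowest KO tumour for all 10 genes, and KO F or KO B is the highest KO tumour for 9 of them.

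Within each genotype the genes differed severalfold between tumours. From the lowest to the highest KO tumour the level differed between 5.29-fold (Oas2) and 15.9-fold (Ifit3), and from the lowest to the highest WT tumour between 2.21-fold (Mx2) and 8.79-fold (Ifit1). These spreads were wider than the mean difference between genotypes for every one of the 10 genes. Compared per length, as CPM per kilobase of exon (RPKM), mean levels over the 11 tumours were highest for Isg15 (76.0 ± 56.5 SD), followed by Ifit3 (35.8 ± 32.5), Oasl2 (20.7 ± 12.4), Irf7 (20.1 ± 13.0), Ifit1 (13.9 ± 9.87) and Ifit2 (10.4 ± 8.08). The lowest were Oas2 (4.06 ± 1.78), Mx1 (3.14 ± 1.88), Rsad2 (1.99 ± 1.38) and Mx2 (1.07 ± 0.623). Of neighbours in this order, Isg15 was above Ifit3 in 11 of 11 tumours, whereas Oasl2 was above Irf7 in only 7 of 11, and Ifit3 above Oasl2, Ifit1 above Ifit2 and Mx1 above Rsad2 in 8 of 11 each.

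The IFIT proteins bind foreign or incompletely capped RNA and block its translation, and their genes held the largest difference of the group. Ifit2 was at 41.4, 7.76, 24.4, 24.2 and 19.0 CPM in WT A to E and at 14.8 (lowest), 45.8 (median) and 112 CPM (highest) in KO tumours. KO A, KO B, KO E and KO F, at 44.8, 86.3, 46.8 and 112 CPM, were above every WT tumour. KO C, at 28.7 CPM, was above all WT tumours but WT A, and KO D was below 4 of the 5 WT tumours. The log2 fold change was 1.25 with an SE of 0.49 (edgeR adjusted p = 0.157, DESeq2 adjusted p = 0.0756). Over the alternative fits it remained above 0, between 0.51 in the fit that carried ribosomal RNA share and 1.55 without WT A, and its adjusted p ranged from 0.0756 to 0.883.

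Ifit3 was at 122, 16.5, 44.8, 20.8 and 17.7 CPM in WT A to E and at 11.5, 59.9 and 182 CPM in the lowest, median and highest KO tumour. WT A lay among the 3 highest tumours, and the other 4 WT tumours lay in the lower part of the KO range. The log2 fold change was 0.80 (SE 0.69, adjusted p = 0.488) and 1.64 without WT A. Ifit1 was at 55.8, 7.09, 62.3, 15.7 and 13.8 CPM in WT A to E and at 6.87, 41.5 and 76.4 CPM in KO tumours (log2 fold change 0.44, SE 0.64, adjusted p = 0.699). For Ifit1, WT A and WT C were as high as the upper KO tumours, and the sign turned in the fit that carried ribosomal RNA share (-0.31).

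OAS proteins make short oligoadenylates that switch on the nuclease RNase L, and OASL2 is their ubiquitin-like relative. Oasl2 was at 149, 43.0, 97.2, 89.1 and 63.1 CPM in WT A to E and at 47.9, 166 and 266 CPM in the lowest, median and highest KO tumour. KO A, KO B and KO F, at 187, 264 and 266 CPM, were above every WT tumour, and KO D was below all WT tumours but WT B. The log2 fold change was 0.93 (SE 0.42, edgeR adjusted p = 0.198), and stayed between 0.49 and 1.20 over the alternatives, with adjusted p from 0.135 to 0.865. Oas2 went the other way by value, at 26.1, 7.01, 15.6, 29.3 and 18.0 CPM in WT A to E and 5.24, 16.9 and 27.8 CPM in KO tumours, with WT D the highest of all tumours. Its log2 fold change was -0.17 (SE 0.40, adjusted p = 0.825), and it turned to 0.02 without KO D and 0.04 without WT D.

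MX proteins are dynamin-like GTPases that trap viral components, and in laboratory strains such as C57BL/6 both mouse genes are known to carry disrupting mutations. Mx1 was at 19.5, 3.17, 7.47, 13.7 and 10.5 CPM in WT A to E and at 3.50, 12.8 and 21.8 CPM in the lowest, median and highest KO tumour (log2 fold change 0.22, SE 0.53, adjusted p = 0.824). Mx2, which the annotation calls a polymorphic pseudogene, was at 4.64, 2.59, 5.45, 2.47 and 2.93 CPM in WT A to E and at 1.22, 3.06 and 8.75 CPM in KO tumours (log2 fold change 0.18, SE 0.47, adjusted p = 0.846). Mx2 was the least abundant of the 10 genes, with between 30 and 249 counts per tumour. For both genes the WT tumours lay within the range of the KO tumours, except WT B for Mx1, which was the lowest of all.

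Isg15 encodes a ubiquitin-like protein that is attached to other proteins. It was at 154, 35.0, 56.7, 19.0 and 17.7 CPM in WT A to E and at 10.7, 60.9 and 97.2 CPM in the lowest, median and highest KO tumour. WT A was the highest of all 11 tumours, while WT D and WT E were below 5 of the 6 KO tumours. The log2 fold change was 0.04 (SE 0.60, adjusted p = 0.971), 0.86 without WT A and 1.67 without WT A, B and C (SE 0.70, adjusted p = 0.269). Isg15 has the shortest exons of the group, 756 bases, and with the length trend of each library as an offset its value was 0.63. The part of the length trend in the WT A value was not tested further.

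Rsad2 (viperin) makes a chain-terminating nucleotide. It was at 16.01, 3.25, 15.5, 3.64 and 6.18 CPM in WT A to E and at 2.11, 7.17 and 20.4 CPM in KO tumours (log2 fold change -0.09, SE 0.55, adjusted p = 0.935). Irf7 encodes the transcription factor that amplifies interferon alpha production and is itself induced by interferon. It was at 137, 38.8, 72.6, 32.2 and 26.8 CPM in WT A to E and at 19.2, 86.5 and 159 CPM in KO tumours (log2 fold change 0.51, SE 0.53, adjusted p = 0.567). WT A and WT C were the 2 highest WT tumours for both genes, and KO F the highest of all 11 for both.

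The values depended on which WT libraries were in the comparison. Without WT A, B and C, the libraries with the lower readings of long genes, 9 of 10 log2 fold changes were above 0, their median was 1.26, and 0 of 10 passed the test against the remaining WT D and E. Without WT A alone the median was 0.81. In the fit that carried ribosomal RNA share as a term 5 of 10 were above 0 and the median was -0.03. The share was higher in WT A, B, C and D than in any KO tumour, so that this fit cannot fully separate share from genotype. The SE of each gene was larger in it than in the main fit.

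**Figure D2:**
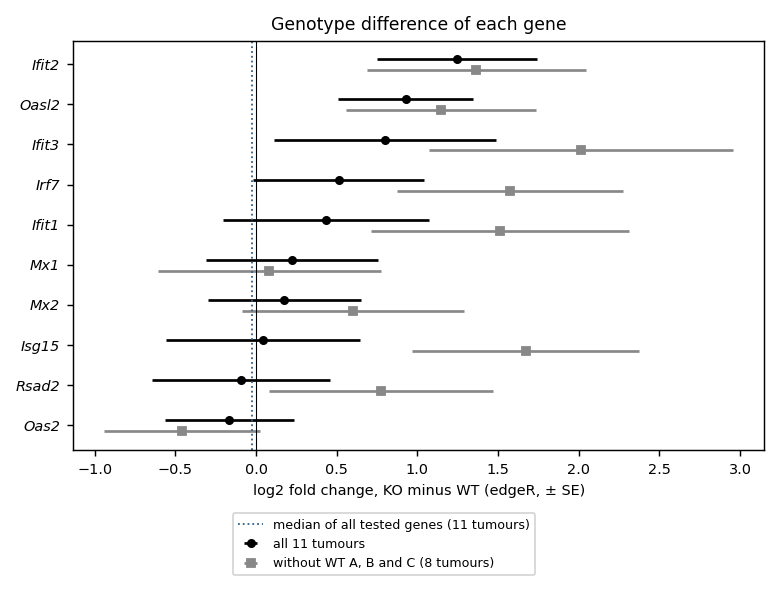
Log2 fold change, KO minus WT, of each gene by edgeR (x axis) with its SE (bars), over all 11 tumours (black circles) and without WT A, B and C (grey squares, 8 tumours). The dotted line is the median of all tested genes, -0.03; Ifit2, Oasl2 and Ifit3 lie farthest to the right over 11 tumours, and Isg15 moves from 0.04 to 1.67 when the 3 libraries are left out.

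The second question was how the genes moved together over the tumours. Their levels varied as a block from animal to animal, and did so within the KO genotype too. On log2(CPM + 1) the Pearson r of the 45 gene pairs over 11 tumours had a median of 0.775 and a range of 0.538 to 0.974, and 44.4% of pairs (20 of 45) reached 0.8, against 3.02% of all pairs of tested genes, whose median was -0.001. Within KO tumours alone the median was 0.912 (n = 6, 40 of 45 pairs at 0.8 or more, against 3.97% of all pairs), and without WT A, B and C it was 0.819 (n = 8). Correlations were taken over 6 or more tumours, and none is given for the 5 WT tumours by themselves. By two-sided permutation test with adjustment over the 45 pairs, adjusted p was under 0.05 for Pearson r in 42 pairs and for Spearman rho in 33. All 10 genes were selected as a known co-regulated family, so that these pairs are not independent of each other.

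The tightest pairs joined genes of different biochemical roles. Ifit2 and Oasl2 had r = 0.974 and rho = 0.973 (permutation p = 1e-05, the smallest that 100000 permutations can give, and p = 2e-05, adjusted p = 0.00045 and 0.0003), and r = 0.979 without the 2 tumours farthest from the Ifit2 median. Isg15 and Irf7 had r = 0.972 and rho = 0.982 (permutation p = 2e-05 and 1e-05, adjusted p = 0.00045 and 0.000225), and r = 0.978 without the 2 farthest tumours. By r the loosest pair was Mx1 with Rsad2, at r = 0.538 and rho = 0.618 (permutation p = 0.0895 and 0.0476, adjusted p = 0.0895 and 0.0613), falling to r = 0.159 without KO D and WT B. By rho it was Isg15 with Oas2, at rho = 0.473 and r = 0.544 (permutation adjusted p = 0.144 and 0.0856), falling to r = 0.123 without KO D and WT A. Oas2 with Irf7 (r = 0.601) also missed the threshold. Oas2 was the least tied to the others over 11 tumours, with a median r of 0.656, against 0.939 within KO tumours. Ifit3 was the most tied, with a median r of 0.885.

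**Figure D3:**
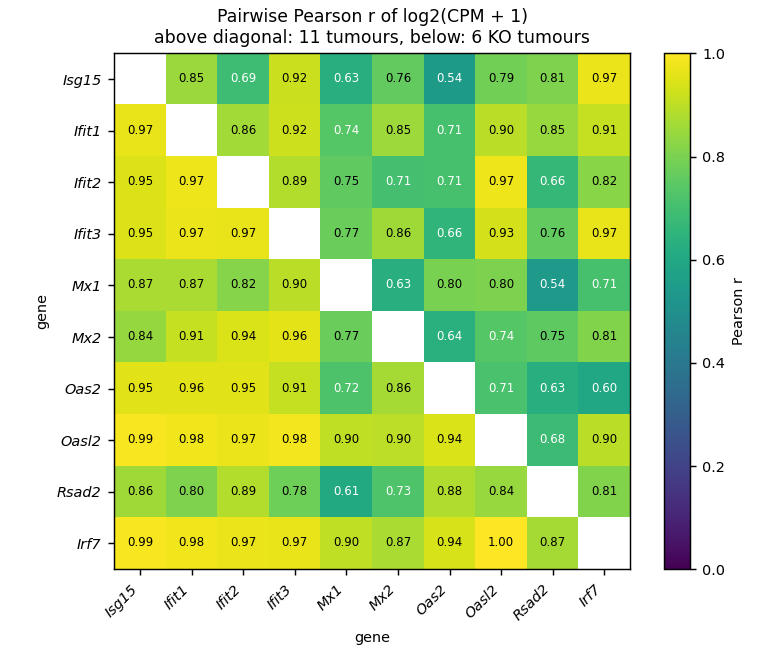
Pearson r of log2(CPM + 1) for each pair of the 10 genes (colour scale from 0 to 1, printed in each cell), over 11 tumours above the diagonal and over the 6 KO tumours below it. Over 11 tumours the lowest values lie in the Oas2, Mx1 and Rsad2 rows and columns, and most KO values are above 0.8.

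The tumours at the ends bore on these values. For each pair, r was taken again without the 2 tumours farthest from the median of its first gene: the median over pairs was 0.704, the lowest value 0.123, and 5 pairs fell below 0.3. KO D was the lowest KO tumour for 10 of 10 genes and the lowest of all 11 for 7 of them, and WT B was the lowest of all 11 for the other 3. KO F was the highest of all 11 tumours for 5 genes, KO B for 2, and WT A was 1 of the 2 highest WT tumours for all 10. As the mean z score of the 10 genes, tumours ran from KO D (-1.50), WT B (-1.12), WT E (-0.572), KO C (-0.477) and WT D (-0.392) through KO E (0.199), WT C (0.252) and KO A (0.393) to WT A (0.906), KO B (1.10) and KO F (1.22). KO and WT tumours are interleaved along this order, and both ends are KO tumours.

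**Figure D4:**
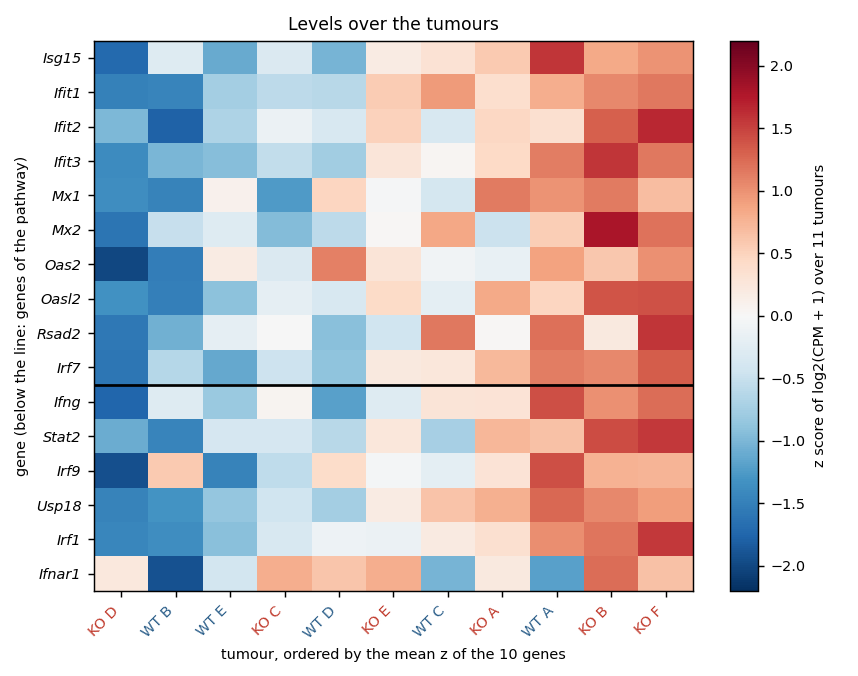
z score of log2(CPM + 1) over the 11 tumours (colour) for the 10 genes and, below the line, 6 genes of the pathway; columns are tumours ordered by the mean z of the 10 genes, with KO labels in red and WT labels in blue. The 10 rows change together from KO D at the left to KO F at the right, and Ifnar1 does not follow the same order.

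The ligands of the pathway were nearly invisible. Of 20 genes for type I and type III interferons, 13 were at 0 in every tumour and the other 7 (Ifnb1, Ifna1, Ifna4, Ifne, Ifnk, Ifnz and Ifnl2) had 30 counts in all over 11 tumours. The summed count per tumour was between 0 and 8. It was 1 in KO B and 5 in KO F, the 2 tumours with the highest mean z of the 10 genes, 3 in KO D, the lowest, and 8 in WT E. The largest count of 1 such gene in 1 tumour was 4, and differences between genotypes were not detectable at this depth. The alpha interferon genes are near copies of each other, and a read that fits several of them would not be counted.

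Interferon gamma was the only ligand with levels that could be tested. Ifng was at 13.9, 4.09, 6.29, 1.84 and 2.63 CPM in WT A to E and at 1.02, 5.80 and 12.3 CPM in the lowest, median and highest KO tumour, a log2 fold change of 0.19 (SE 0.60, adjusted p = 0.867). Its highest tumours were WT A, KO F and KO B, and its lowest was KO D. Of the 10 genes, KO D was the lowest of all tumours for 7. KO F was the highest for 5, KO B for 2 and WT A for 1. The relations of the 10 genes to Ifng, Stat2, Irf9 and Ifnar1, a family of 40, were chosen after the values had been seen. With Ifng the Pearson r ranged from 0.537 (Oas2) to 0.966 (Isg15), with a median of 0.804, and Spearman rho from 0.355 (Oas2) to 0.955. Adjusted permutation p was under 0.05 for 8 of 10 genes by both measures, the exceptions being Mx1 and Oas2. Isg15 had r = 0.966 and rho = 0.955 (permutation p = 1e-05, the smallest possible, and 2e-05), and r = 0.931 without KO D and WT A. Oas2 had r = 0.537 and rho = 0.355 (permutation p = 0.0877 and 0.285), and r = 0.116 without these tumours. Within KO tumours r with Ifng ranged from 0.757 to 0.951.

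**Figure D5:**
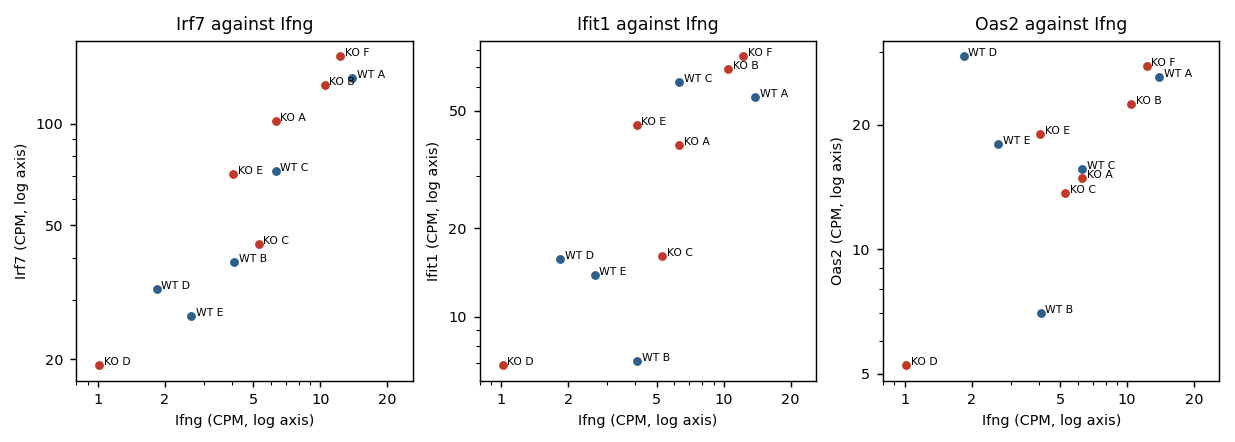
Level of Irf7, Ifit1 and Oas2 (y axes, CPM, log scale) against Ifng (x axes, CPM, log scale) in each tumour, KO in red and WT in blue. Irf7 follows Ifng over all 11 tumours (r = 0.943 on log2(CPM + 1)), Ifit1 less closely (r = 0.815), and Oas2 is high in WT D although Ifng is low there (r = 0.537).

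No marker list of a cell type passed the test of a relation to the 10 genes, and the T cell markers had the highest r. The summed level of 6 T cell markers (Cd3e, Cd3d, Cd3g, Cd4, Cd8a, Trac), all with counts in every tumour, was between 64.6 CPM (KO D) and 377 CPM (KO F) in KO tumours and between 172 CPM (WT C) and 437 CPM (WT A) in WT tumours. Its r with the 10 genes had a median of 0.674 and a range of 0.594 to 0.805, and fell to between 0.322 and 0.702 without KO D and WT A. All 10 had an unadjusted permutation p under 0.05 and none passed over the family of 80 relations to 8 marker lists (lowest adjusted p = 0.145). The 6 markers of plasmacytoid dendritic cells, known producers of type I interferon, had counts in every tumour, with sums from 16.4 to 42.7 CPM (KO) and from 5.34 to 89.3 CPM (WT), and a median r of 0.317. These values hung on 1 marker in 2 tumours: Klk1 was at 77.4 CPM in WT E and 28.7 CPM in KO E, and between 0.147 and 5.81 CPM in the other 9. Without Klk1, an alternative chosen after seeing the data, the sums were 13.9 to 31.8 CPM (KO) and 4.67 to 19.9 CPM (WT), and the median r was 0.570, not tested. Macrophage (median r = -0.019), B cell (-0.00908), neutrophil (-0.178), fibroblast (-0.207), epithelial (0.124) and endothelial (0.0916) sums passed for none of the 10 genes. Within KO tumours (n = 6, not tested) the median r was 0.852 for T cell, 0.442 for plasmacytoid dendritic cell, -0.674 for B cell and -0.570 for neutrophil sums. There it was -0.105 for macrophage, -0.177 for fibroblast, -0.179 for epithelial and -0.0418 for endothelial sums. B cell marker sums were 35.2 to 106 CPM (KO) and 6.34 to 32.4 CPM (WT), without overlap. Of the 8 marker lists edgeR called 0 genes. At unadjusted p under 0.05 all 6 B cell, 4 of 6 macrophage, 4 of 6 neutrophil and 1 of 6 plasmacytoid dendritic cell markers had higher values in KO, beside 8.57% of all genes, and 3 of 6 epithelial markers lower values, beside 15.5%. DESeq2 called 6 B cell, 2 macrophage and 2 neutrophil markers, beside 8.06% of all genes. The part of any cell type in the levels of the 10 genes was not tested.

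Among technical measures, the ribosomal RNA share had a median r of -0.342 with the 10 genes over 11 tumours and -0.866 within KO tumours (n = 6), the length trend -0.0738 and the total count 0.272. None of the 30 relations over 11 tumours passed the permutation test (lowest adjusted p = 0.636), and those within KO tumours were not tested. The part of RNA quality in the shared movement was not tested beyond a correction: with the share regressed out the median r of the pairs was 0.761, and with the length trend removed 0.792. Both values are over all 11 tumours. No corrected value is given for KO tumours alone, so the part of the share in their median r of 0.912 was not tested.

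Receptors and kinases of the pathway were present in all tumours. Ifnar1 averaged 129 ± 11.7 CPM in the KO group (SD, n = 6) and 94.1 ± 21.5 CPM in the WT group (SD, n = 5). Its log2 fold change was 0.46 (SE 0.16, edgeR adjusted p = 0.124). By tumour, Ifnar1 was at 84.1, 70.8, 87.2, 127 and 101 CPM in WT A to E, and from 116 to 147 CPM in KO tumours. The lowest values were thus those of WT A, B and C, the libraries that stood apart. Ifnar2 averaged 56.8 ± 10.7 and 51.1 ± 8.92 CPM (log2 fold change 0.15, adjusted p = 0.606). The interferon gamma receptor chain Ifngr1 had 0.46 (adjusted p = 0.206) and Ifngr2 -0.03. The other chains of the list, Il10rb and Ifnlr1, had 0.08 and 0.18. By edgeR 0 of 6 receptor genes passed, 2 at unadjusted p under 0.05 with higher values in KO (8.57% of all genes), and DESeq2 also called 0. Of the kinases, Jak1 had 0.60 (SE 0.22, adjusted p = 0.133), Jak2 0.34 and Tyk2 0.14. Jak1 was at 95.4, 69.3 and 96.8 CPM in WT A, B and C. WT D and WT E, at 160 and 168 CPM, lay within its KO range of 154 to 209 CPM. The median r of Ifnar1 with the 10 genes was 0.262 over 11 tumours, with 0 of 10 passing, 0.516 within KO tumours and 0.553 without WT A, B and C.

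The transcription factor gene Stat2 followed the 10 genes over the tumours. It averaged 81.4 ± 33.0 CPM in the KO group (SD, n = 6) and 53.3 ± 18.1 CPM in the WT group (SD, n = 5), 0.61 higher on the log2 scale by edgeR without passing (SE 0.30, adjusted p = 0.233). Irf9 averaged 53.5 ± 10.2 and 56.5 ± 11.8 CPM (-0.08, SE 0.19, adjusted p = 0.820). Over all tumours the median r with the 10 genes was 0.820 for Stat2 and 0.599 for Irf9. In the family of 40, Stat2 passed for 9 of 10 genes by r and 8 by rho, and Irf9 for 3 of 10. Within KO tumours (n = 6, not tested) the median r was 0.960 for Stat2 and 0.962 for Irf9. Leaving out WT A, B and C (not tested) gave 0.961 for Stat2 and 0.827 for Irf9. Without KO B and KO F, the 2 tumours farthest from the Stat2 median, r with Stat2 ranged from 0.377 (Mx2) to 0.926 (Oasl2). Without KO D and WT E, the 2 farthest for Irf9, r with Irf9 ranged from 0.255 (Ifit2) to 0.595 (Isg15). By edgeR and by DESeq2 0 of 5 signal transducers passed, with a median log2 fold change of 0.34. At an edgeR unadjusted p under 0.05 there was 1 (Jak1, higher in KO), beside 8.57% of all genes in this direction and 24% in either.

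Sensors that start interferon production were next. Of 16 sensors and adaptors, edgeR called 0, 4 had an unadjusted p under 0.05, all with higher values in KO (8.57% of all genes, and 24% in either direction), and DESeq2 called 0. These 4 were Tlr7, a receptor for single-stranded RNA (log2 fold change 0.83, adjusted p = 0.132), Tlr9, a receptor for CpG DNA (1.76, adjusted p = 0.159), Tmem173, which encodes STING (0.69, adjusted p = 0.170), and the kinase gene Tbk1 (0.38, adjusted p = 0.198). Tlr9 was the only gene of the list whose groups did not overlap, with KO levels from 7.07 to 20.8 CPM and WT levels from 0.417 to 7.06 CPM, beside 3.6% of all genes. WT A, B and C, the libraries that stood apart, were at 0.998, 0.417 and 0.442 CPM, while WT D and WT E, at 6.85 and 7.06 CPM, lay close to the 4 lowest KO tumours (7.07 to 8.53 CPM). Without WT A, B and C the log2 fold change of Tlr9 was 0.65 (SE 0.45, adjusted p = 0.478). The transcription factor Irf3 had -0.33 (adjusted p = 0.212) and the RNA sensor Ifih1 0.59 (adjusted p = 0.227). Of the brakes and the ISG15 conjugation system, 0 of 9 tested genes passed by either tool. At an edgeR unadjusted p under 0.05 there was 1, the ISG15 ligase gene Herc6 (1.04, SE 0.47, adjusted p = 0.197), beside the same 8.57% and 24% of all genes. Usp18, which removes ISG15 and shuts off IFNAR signalling, had 0.27 (adjusted p = 0.786), Irf2 0.42, the RNA editor gene Adar 0.37, the nuclease gene Isg20 -0.36 and the ISG15-activating enzyme gene Uba7 0.32. Trex1 was listed at 0 in every tumour, and the cause of this was not tested.

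Other interferon-stimulated effectors came next. Of 46, 45 were tested (Ifi44l was at 0 in every tumour), edgeR called 0, and 7 had an unadjusted p under 0.05, beside 24% of all genes. Of the 7, 6 were higher in KO and Ifi27 was lower (-0.99, SE 0.33, adjusted p = 0.113). Those with the smallest p included Slfn9 (1.24, SE 0.35, adjusted p = 0.0963, the 1 gene of the list that DESeq2 called, adjusted p = 0.0182), Znfx1 (0.79, adjusted p = 0.128), Parp9 (0.92, adjusted p = 0.130), Ifit1bl2 (1.11, adjusted p = 0.131) and Parp14 (1.02, adjusted p = 0.148). The log2 fold change was above 0 for 32 of 45, beside 48% of all genes, with a median of 0.41, beside 0.33 for the 10 genes and -0.03 over all genes. Of 12 genes that lean towards interferon gamma, 12 were above 0, with a median of 0.71, and 0 passed by either tool (2 at unadjusted p under 0.05, beside the same 24%). Ciita, the switch of MHC class II genes, had 1.14 (adjusted p = 0.129), the GTPase genes Tgtp2 1.04 (adjusted p = 0.187) and Irgm2 0.80 (adjusted p = 0.251), Nos2 1.29 (adjusted p = 0.242), the T cell chemokine gene Cxcl9 1.25 (adjusted p = 0.256) and Irf8 0.56 (adjusted p = 0.282). Many genes of both lists moved with the 10 genes over the tumours, so signs within a list are not independent either. Whether the 2 lists differ from the 10 genes was not tested.

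Several genes of the pathway lists were among those whose levels were most like the 10 genes. Ranked by the mean r with the 10 genes over 11 tumours among 16526 other tested genes, the first 10 were Irf1 (0.873), Parp10 (0.871), Igtp (0.863), Usp18 (0.861), Ifi44 (0.856), Ifit3b (0.852), Tapbpl (0.846), Gm12250 (0.846), Ifi47 (0.843) and Dhx58 (0.840). A mean r of 0.8 or more was reached by 37 genes, 0.224% of all, while the median gene had -0.048. Of the first 10, 6 stood on the pathway lists, and of the first 50, 18 did, beside 0.569% of all ranked genes (94 of 16526). The pathway lists include the genes that lean towards interferon gamma, to which Irf1 and Igtp belong. No enrichment was tested, the lists having been chosen with results of these data known, and Ifit3b shares sequence with Ifit3. None of the first 10 had an edgeR unadjusted p under 0.05 for genotype, their adjusted p being 0.317 or higher. The median mean r was 0.696 over the 45 other effectors, 0.772 over the 12 genes that lean towards interferon gamma, 0.553 over the sensors and 0.274 over the receptors.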

How the data were processed

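Groups and letters of the 11 tumours came from the sample titles. The authors deposited raw counts per gene in whole numbers, which were used for all tests, and a normalised signal, scaled counts, used only as an alternative scale. Per the study's methods and the submitters' processing notes, Trimmomatic trimmed the strand-specific read pairs, HISAT2 (2.1.0) placed them on mm10 (GRCm38), and reads were counted over exons with HTSeq (0.11.2), keeping uniquely aligned reads, so that reads shared by near copies are lost.

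Identifiers were matched to GENCODE M21 (54165 of 54232). edgeR (4.0.16, R 4.3.3) quasi-likelihood tests used TMM, filterByExpr and Benjamini-Hochberg adjustment over 16536 genes at 0.05, and DESeq2 (1.42.0) was an alternative. The SE was derived from the fold change and its F statistic. Correlations used log2(CPM + 1), a pseudocount of 1 CPM, and 100000 two-sided permutations. No 2 libraries agreed within sampling noise (lowest chi-square per degree of freedom 36.8). Counting floors cover counting error only.

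The 10 genes and all lists were chosen with earlier results of these data known. Named were the 10 genes, ligands with a count, Ifnar1, Ifnar2, Jak1, Tyk2, Stat2, Irf9, Irf3, Usp18, the 6 genes of smallest p in each other list, and the 10 genes most like the 10. A gene of the pathway is not reported here. Outside this rule, Pkn2 was named as the targeted gene, and Ifi44l, Trex1 and Klk1 after their values were seen. The alternatives were other scaling and filters, leaving out tumours, a replicate block, the ribosomal RNA share and exon length.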

Additional observations from a re-analysis of the deposited data

Results flagged for a closer look

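Of 42 sets of values examined for a single sample far from the rest of its group, 2 held one, where chance gives about 2.1, since about 1 in 20 sets passes by chance. The ribosomal RNA share of WT B was 6.39%, with the next WT tumour at 1.40% and a gap of 0.811 of the range of the group. WT B was the lowest of all 11 tumours for 3 of the 10 genes. The level of Irf3, a transcription factor that starts interferon production, was 5.99 on log2(CPM + 1) in KO A, with the next KO tumour at 5.63 and a gap of 0.627 of the range. KO A was neither the highest nor the lowest KO tumour for 9 of the 10 genes, the exception being Mx1, where it was the highest.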

How the results depend on the processing

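The 10 genes gave 0 calls under each of the 19 alternatives. Signs turned, with no call on either side, for Mx1 and Mx2 with a replicate block (-0.11 and -0.30), for Ifit1, Mx1 and Mx2 with the ribosomal RNA share (-0.31, -0.44 and -0.19), for Rsad2 without WT A, B and C (0.77), and on leaving out single tumours for Isg15 (range -0.18 to 0.86), Mx1 (-0.00866 to 0.54), Mx2 (-0.20 to 0.37), Oas2 (-0.38 to 0.0396) and Rsad2 (-0.58 to 0.23). Their median, 0.33, ranged from 0.12 to 0.81 over single tumours left out and was 1.26 without WT A, B and C. The 3 calls over all genes became 45 without a filter, 0 with at least 10 counts in every tumour, 9 with the replicate block, 0 with the ribosomal RNA share, 98 with the length offset, 7 without WT A, B and C and 1495 with DESeq2. On leaving out single tumours they ranged from 0 to 1856, with 1856 without WT E, 854 without WT D, 32 without KO F and 0 without any other tumour. The causes were not tested. The median pairwise r, 0.775, was 0.912 in KO tumours alone, 0.655 without KO D and WT B, and 0.719 to 0.817 on leaving out 1 tumour. Without Klk1 the median r of the plasmacytoid dendritic cell sum, 0.317, was 0.570.

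Replicate letters name different animals, and deviations of tumours with the same letter correlated between -0.172 and 0.163. The labels do not say whether such tumours shared a litter or a batch, and these correlations cannot tell. The 10 genes had 30 to 7515 counts per tumour and single interferon ligands 0 to 4, at which differences of the ligands were not detectable. The part of depth and of reads shared by near copies in these low counts was not tested.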
